A study of Mus musculus with 18 samples.

Results

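The transcripts described here are those of 10 immediate early genes, Fos, Fosb, Jun, Junb, Atf3, Egr1, Egr2, Egr3, Ier2 and Klf6. They were chosen by symbol, and all 10 were found among the 24062 gene symbols of the count table. The RNA came from whole liver, kidney and lung of C57BL/6 mice aged 4 months, in a study of cyclin E1 overexpression. CCNE-TA mice carried a Tet-inducible Ccne1 transgene together with the transactivator rtTA, and TA mice carried rtTA without it. Both genotypes had been given doxycycline since the age of 3 weeks, so that rtTA and the drug were common to all groups. Each tissue and genotype was represented by 3 libraries, 18 in all. The labels name neither the promoter that drives rtTA nor the mouse behind each library, so p-values measure the spread between these libraries, part of which may be technical.

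The labels could be checked on Ccne1 itself, which stood at 210 to 353 CPM in CCNE-TA liver against 2.05 to 2.82 CPM in TA liver. CPM are counts scaled to library size, with TMM factors set within a tissue. In kidney Ccne1 stood at 485 to 897 against 1.57 to 2.58 CPM, and in lung at 65.7 to 125 against 1.04 to 6.02 CPM. Total counts ran from 20352770 in a kidney library to 155323865 in a lung library. At these depths 3 counts equalled between 0.0193 and 0.147 CPM, a limit that covers counting error only. Summed markers of the labelled tissue were high in every library, with sums of 91400 to 171000 CPM for liver markers, 19700 to 74100 CPM for kidney markers and 48800 to 126000 CPM for lung markers. Several libraries stood apart. Liver TA 2 and TA 3 held 0.324 and 0.398 CPM of summed kidney markers, against 16.5 to 34.7 CPM in the other 4 livers. Liver TA 2 had 0.27 CPM of Xist, which is transcribed in females, while kidney TA 2 and lung TA 2 had 1240 and 720 CPM. Xist was thus at 402 CPM or more in 2 CCNE-TA livers and 1 TA liver and at 3.1 CPM or less in the others, while in kidney and lung it was high in libraries 1 and 2 and low in 3 of both genotypes. Lung TA 3 held 2210 CPM of summed liver markers against 55.8 to 642 CPM in the other lungs, and 5170 CPM of summed heat shock genes against 1900 to 2840 CPM. CCNE-TA 1 of each tissue was high in neutrophil markers, with values given beside the results they move with. In whole tissue, a change in the number of cells of a type and a change in RNA per cell cannot be told apart.

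Immediate early genes are transcribed within minutes of a growth factor, cytokine or stress signal, from factors already present in the cell. MAP kinases act on ternary complex factors that sit with SRF on CArG boxes, and other kinases act on CREB at cAMP response elements. The mRNAs are short-lived, many of them through AU-rich elements in the 3′ UTR, and most of the proteins are transcription factors that switch on a later wave of genes. In liver the family is known for its induction after partial hepatectomy, when resting hepatocytes enter the cell cycle. FOS and FOSB pair with JUN and JUNB to form AP-1, and ATF3 is a stress-induced relative that pairs with JUN proteins. EGR1, EGR2 and EGR3 are zinc finger factors that bind GC-rich DNA, KLF6 is a zinc finger factor of the Krüppel-like family, and IER2 is a small nuclear protein.

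None of the motifs searched stood in every member with a promoter window, and CCAAT was the most widespread, in 5 of 7. Upstream stretches of 250 bases are shown for 4 members. The others with a window, among them Atf3 and Egr2, are not shown. The sequences are from RefSeq on GRCm38.p6, read 5′ to 3′ on the strand of the gene and ending at the base before the RefSeq start. Fos is shown from chr12:85473640-85473889 (plus strand), Jun from chr4:95052223-95052472 (minus), Junb from chr8:84978749-84978998 (minus) and Klf6 from chr13:5861239-5861488 (plus). Capitals mark the cAMP response element core, its longer relative, the TATA box and the CCAAT box on either strand, as spelled out after the sequences.
Fos: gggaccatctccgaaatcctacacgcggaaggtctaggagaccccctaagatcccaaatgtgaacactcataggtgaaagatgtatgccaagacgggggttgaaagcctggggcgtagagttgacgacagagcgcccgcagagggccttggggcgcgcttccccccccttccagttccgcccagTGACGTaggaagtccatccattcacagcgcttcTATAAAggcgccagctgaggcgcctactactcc
Jun: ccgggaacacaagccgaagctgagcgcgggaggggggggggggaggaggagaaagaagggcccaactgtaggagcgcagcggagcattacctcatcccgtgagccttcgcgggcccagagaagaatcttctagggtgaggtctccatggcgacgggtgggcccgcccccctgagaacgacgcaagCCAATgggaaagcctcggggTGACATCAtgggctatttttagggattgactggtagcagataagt
Junb: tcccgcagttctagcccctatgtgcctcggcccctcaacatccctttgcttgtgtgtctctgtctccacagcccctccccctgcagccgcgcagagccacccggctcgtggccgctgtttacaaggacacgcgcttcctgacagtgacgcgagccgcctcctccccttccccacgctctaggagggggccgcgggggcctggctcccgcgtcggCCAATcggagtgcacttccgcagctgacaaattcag
Klf6: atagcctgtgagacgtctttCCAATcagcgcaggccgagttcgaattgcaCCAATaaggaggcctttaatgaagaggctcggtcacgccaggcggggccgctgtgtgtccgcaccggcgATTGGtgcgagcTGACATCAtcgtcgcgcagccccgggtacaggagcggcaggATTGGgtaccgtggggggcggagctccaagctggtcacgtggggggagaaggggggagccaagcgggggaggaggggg
Motifs were chosen after the sequences had been seen and were searched on both strands in 32851 promoter windows of 300 bases, 250 before the start and 50 after it. 7 of the 10 members matched a window by symbol. A member was counted if any of its windows held the motif, while the shares of all windows count each window. Egr2 had several windows, and not all of them held the cAMP response element core or CCAAT. The cAMP response element core TGACGT was found in Fos, at -66 to -61 from the start, in Atf3 and in Egr2, and in 7.51% of all windows. The longer relative TGACATCA stood at -45 to -38 in Jun and at -119 to -112 in Klf6, and in 3.62% of all windows. The AP-1 site TGANTCA was in none of the 7 members' windows and in 7.81% of all, and the CArG box was in windows of Egr2 and in 1.63% of all. TATAAA lay at -33 to -28 in Fos and at 0 to 5 in Junb, and in 13.6% of all windows. CCAAT was in Atf3, Egr2, Jun, Junb and Klf6, with 4 copies in Klf6, and in 37.4% of all windows. A match describes the letters only. In the 3′ UTR the pentamer AUUUA occurred 7 times in Klf6 and Egr3, 4 times in Fos and Jun, 3 times in Atf3 and Egr2, 2 times in Junb and Egr1, 1 time in Fosb, and not in Ier2. Of all coding genes with a 3′ UTR, 35.7% had at least 3 copies.

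**Figure D1:**
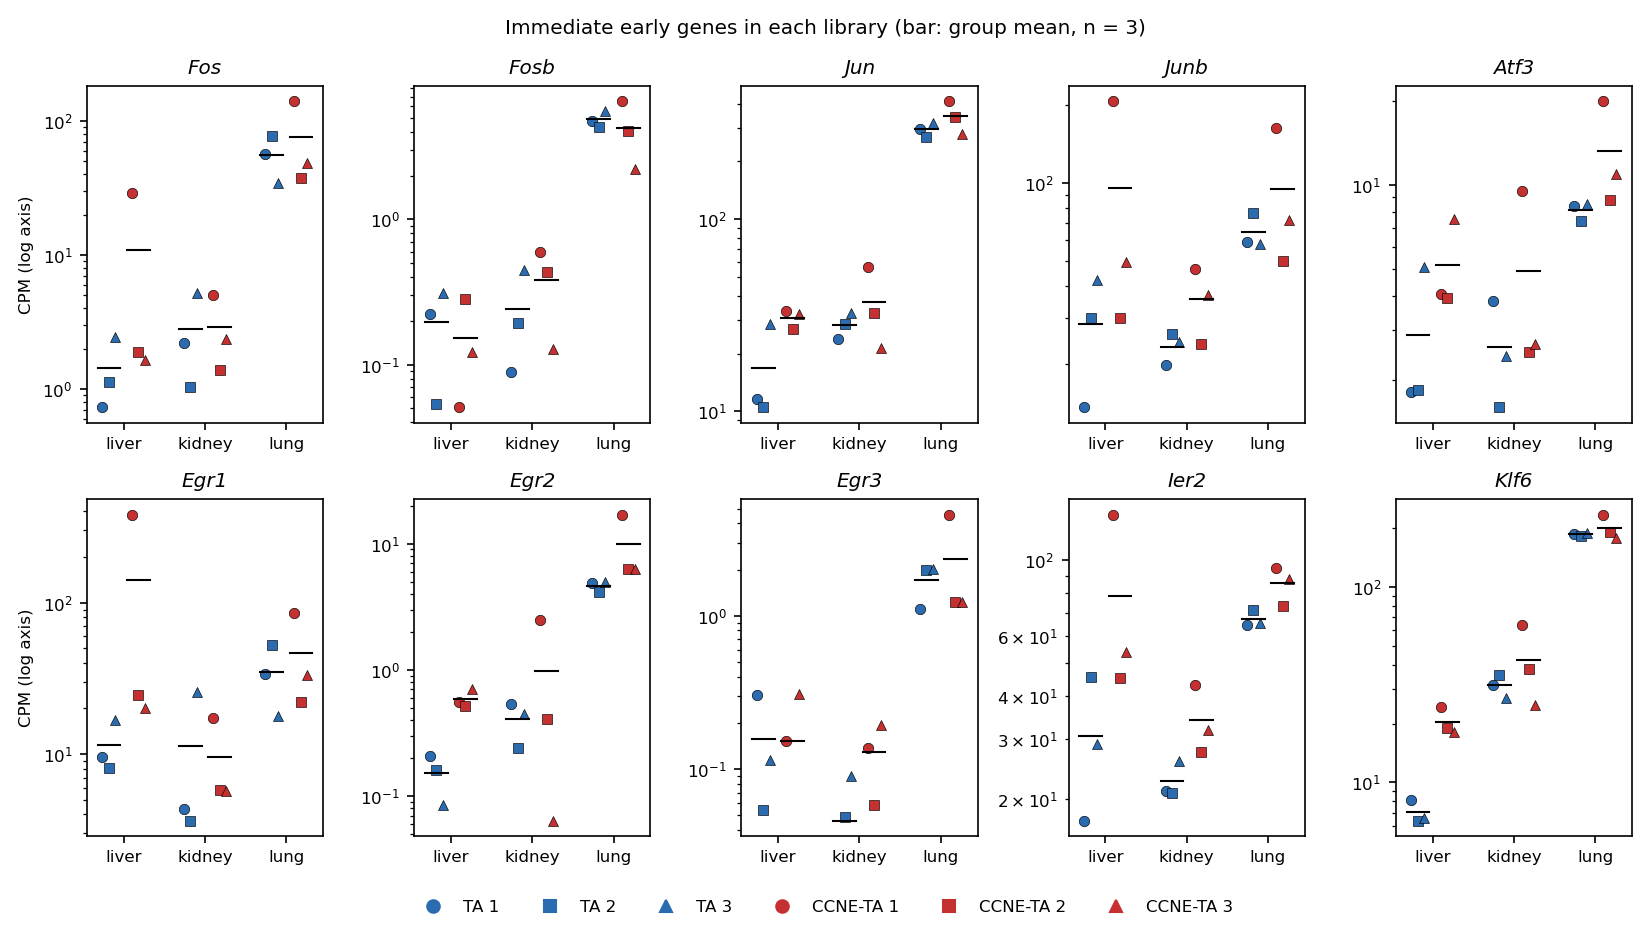
CPM of each immediate early gene (log axis, 1 panel a gene) in every library by tissue, with TA in blue, CCNE-TA in red, the library number as the symbol and the group mean as a bar (n = 3). Klf6 in CCNE-TA liver, at 18.2 to 24.3 CPM, lies above all TA livers, and the red circles of CCNE-TA 1 are the highest points of all 10 genes in lung. Values of 0 (Egr3 in liver CCNE-TA 2 and kidney TA 1) cannot be drawn on the log axis.

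The liver comparison asked how these transcripts differ when cyclin E1 is overexpressed. Klf6 and Egr2 rose in CCNE-TA liver, by 1.54 and 1.91 on the log2 scale, and the other 6 tested members had a higher mean in CCNE-TA without passing the test. Thus 2 of 8 tested members were raised and 0 lowered, where 28.5% of all 13811 tested genes passed in either direction and 13.7% were raised. The share of members raised is therefore not far from that of all genes. The median log2 fold change of the 8 members was 1.64, against 0.02 for all tested genes, and without liver CCNE-TA 1 it was 0.90, against 0.03. Every CCNE-TA liver was above every TA liver for 3 of the 8, Klf6, Egr2 and Egr1, and for 23.2% of all genes. Fosb and Egr3 had too few counts to be tested, with 0.0508 to 0.313 CPM and 0 to 0.307 CPM in the 6 livers. DESeq2 called 3 members, Klf6, Egr2 and Ier2 (36% of all genes), and gave no p for Fos and Egr1. With upper quartile scaling the median of all genes in liver moved to 0.21, and no tested member changed sign there under any scaling. In the same livers 5 of 6 endothelial markers fell, where 14.8% of all genes did. Their sums were 54.4 to 76.7 CPM in CCNE-TA and 120 to 154 CPM in TA. Summed pancreas markers were 9.14 to 14.3 CPM in CCNE-TA and 22.7 to 192 CPM in TA, with 1 of 3 tested lowered by edgeR and 3 by DESeq2. The part of these cells in the members' values was not tested.

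Klf6 (chromosome 13, 5861482 to 5870394, plus strand of mm10) had the smallest SE of the liver members. It stood at 24.3, 18.9 and 18.2 CPM in CCNE-TA 1, 2 and 3, and at 8.10, 6.38 and 6.60 CPM in TA 1, 2 and 3. Every CCNE-TA liver was above every TA liver, and the libraries within a genotype were close together. The log2 fold change was 1.54 ± 0.205 (SE), with an edgeR adjusted p of 0.00344. Without any 1 of the 6 libraries the adjusted p stayed between 0.00394 and 0.0233. With a term for TA 2 and TA 3, the livers low in kidney markers, the log2 fold change was 1.34 and the adjusted p 0.0744. With TA 1 as the only control they were 1.32 and 0.166, and with Xist as a covariate 1.38 and 0.0119. The part that the difference among control livers has in the result was not tested further.

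Ier2, the other member outside the AP-1 and EGR families, stood at 136, 45.2 and 54.0 CPM in the CCNE-TA livers. Its values in TA were 17.3, 45.6 and 29.0 CPM, so that the groups overlapped at TA 2 and CCNE-TA 2. The log2 fold change was 1.36 ± 0.503 with an edgeR adjusted p of 0.0795, and DESeq2 gave 0.0146. Leaving out CCNE-TA 1 brought it to 0.71 (edgeR adjusted p = 0.223). Offsets for transcript length and GC content brought it to 0.72 (edgeR adjusted p = 0.304), in a comparison where transcripts under 2000 nt had a median log2 fold change of 0.41.

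Among the EGR genes, Egr2 passed the test at a level near the limit of counting. Egr2 (chromosome 10, 67535475 to 67542188, plus strand) stood at 0.559, 0.516 and 0.705 CPM in the CCNE-TA livers, from 22 to 23 counts. In TA it stood at 0.207, 0.162 and 0.0853 CPM, from 3 to 13 counts. All CCNE-TA livers were higher, and the log2 fold change was 1.91 ± 0.542 (edgeR adjusted p = 0.0326). The call was lost without each of the 6 libraries in turn (adjusted p 0.0536 to 0.119), with log2 fold changes of 1.64 to 2.21. When TA 2 and TA 3 had a term of their own it was 1.5 (edgeR adjusted p = 0.276), and with Xist as a covariate 1.84 (0.0761).
Egr1, the most abundant EGR transcript here, stood at 381 CPM in CCNE-TA 1 and at 24.5 and 20.2 CPM in CCNE-TA 2 and 3. TA livers held 9.61, 8.05 and 16.9 CPM. The groups did not overlap, yet 1 library set the mean, and the log2 fold change of 3.62 ± 1.41 had an edgeR adjusted p of 0.119. Without CCNE-TA 1 the log2 fold change was 0.97 with an adjusted p of 0.0945.

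The AP-1 transcripts Fos and Junb were likewise highest in CCNE-TA 1. Fos stood at 29.2 CPM in CCNE-TA 1, against 1.88 and 1.66 CPM in CCNE-TA 2 and 3 and 0.732, 1.13 and 2.47 CPM in TA. Apart from CCNE-TA 1 the genotypes overlapped, and the log2 fold change of 2.93 ± 1.34 (edgeR adjusted p = 0.155) was 0.31 without it. Junb stood at 206, 30.0 and 49.4 CPM in CCNE-TA and 13.6, 30.1 and 42.2 CPM in TA, a log2 fold change of 1.73 ± 0.831 (adjusted p = 0.168) that was 0.48 without CCNE-TA 1 and 1.13 with the offsets for length and GC content.
Jun had another pattern. It stood at 33.2, 27.0 and 32.0 CPM in CCNE-TA and at 11.6, 10.5 and 28.4 CPM in TA, where TA 3 reached the CCNE-TA range. Its log2 fold change was 0.87 ± 0.366 (edgeR adjusted p = 0.106), and without TA 3 it was 1.47 (adjusted p = 0.0162). Atf3 stood at 4.06, 3.92 and 7.51 CPM against 1.80, 1.84 and 5.06 CPM, again with TA 3 inside the CCNE-TA range, and its log2 fold change was 0.84 ± 0.474 (adjusted p = 0.211). About 7.28% of the exon bases of Jun overlap Junos and 7.52% of those of Junb overlap Prdx2 on the other strand, and the library kit keeps no strand, so reads there cannot be assigned.

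When all 18 libraries shared 1 fit, and with it 1 estimate of the spread, 5 of 10 members passed in liver, where 32.3% of 17155 genes did and 17% were raised. Klf6 (edgeR adjusted p = 0.000833), Ier2 (0.0112), Egr1 (0.0261), Junb (0.0398) and Fos (0.0416) were higher in CCNE-TA, and Egr2 (0.0941) no longer passed. CCNE-TA 1 was part of that fit.

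**Figure D2:**
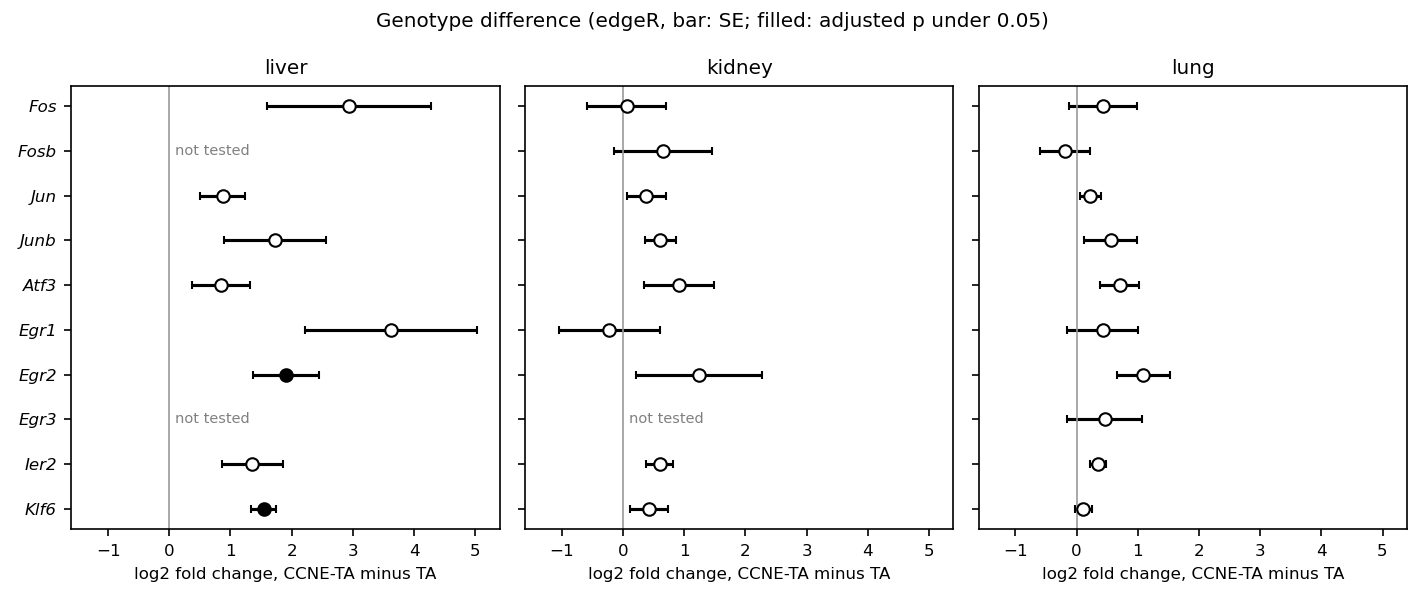
Log2 fold change of each immediate early gene, CCNE-TA minus TA, in liver, kidney and lung, with its SE as a bar. Filled points, Egr2 and Klf6 in liver, have an edgeR adjusted p under 0.05. The fold changes run from 0.84 to 3.62 in liver, from -0.22 to 1.25 in kidney and from -0.19 to 1.09 in lung.

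In kidney none of the 9 tested members passed. The edgeR adjusted p was 0.999 for each, 0 were called, and 2 had an unadjusted p under 0.05. The background was 0.0131% of 15247 tested genes called and 2.13% at an unadjusted p under 0.05, and DESeq2 (0.207% of all genes) and limma-voom also called 0 members. Ier2 was the 1 member whose groups did not overlap (3.04% of all genes had every CCNE-TA kidney above every TA kidney). Ier2 stood at 43.1, 27.5 and 31.9 CPM in CCNE-TA and at 21.1, 20.8 and 25.8 CPM in TA, a log2 fold change of 0.60 ± 0.213. Junb stood at 46.3, 23.9 and 37.0 CPM against 19.8, 26.0 and 24.2 CPM, with a log2 fold change of 0.61 ± 0.253. CCNE-TA 2 lay within the TA range of Junb.
The other kidney members were led by single libraries. Egr2 stood at 2.47, 0.405 and 0.064 CPM in CCNE-TA and at 0.533, 0.241 and 0.447 CPM in TA, so that its lowest and highest values were both in CCNE-TA. The lowest rested on 2 counts, under the limit of 3 counts, and the highest on 54. Egr1 was highest in TA 3, at 25.8 CPM, followed by CCNE-TA 1 at 17.4 CPM, with 3.64 to 5.78 CPM in the other 4 kidneys. The same 2 kidneys held the highest Fos, 5.19 and 5.02 CPM, against 1.04 to 2.37 CPM elsewhere. Jun, Klf6, Atf3 and Fosb were each highest in CCNE-TA 1, at 56.6, 63.6, 9.5 and 0.594 CPM, and their log2 fold changes of 0.38 to 0.91 had SEs of 0.311 to 0.794. Fosb had 2 to 15 counts a library. Egr3 was not tested and had 0 to 6 counts a library.

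In lung none of the 10 members passed either, all with an edgeR adjusted p of 1. The background was 0.00594% of 16823 tested genes. 2 members had an unadjusted p under 0.05 (3.65% of all genes), and DESeq2 (1.1% of all genes) and limma-voom called 0 members. Egr2, Ier2 and Atf3 were higher in every CCNE-TA lung than in every TA lung, as were 3.3% of all genes. Egr2 stood at 17.0, 6.27 and 6.32 CPM in CCNE-TA and at 4.88, 4.11 and 4.94 CPM in TA, a log2 fold change of 1.09 ± 0.434. Ier2 stood at 94.8, 73.4 and 88.3 CPM against 64.6, 71.4 and 65.4 CPM (log2 fold change 0.35 ± 0.134). The groups of Ier2 came close, with CCNE-TA 2 next to TA 2. Atf3 stood at 19.9, 8.81 and 10.9 CPM against 8.37, 7.42 and 8.54 CPM, a log2 fold change of 0.70 ± 0.323.
The AP-1 transcripts Fos, Jun and Junb overlapped between the genotypes in lung. Fos stood at 140, 37.4 and 48.5 CPM in CCNE-TA and at 56.2, 76.9 and 34.2 CPM in TA. Apart from CCNE-TA 1, the highest Fos was in a TA lung. Klf6, which rose in liver, stood at 234, 190 and 177 CPM against 187, 182 and 189 CPM in lung, a log2 fold change of 0.11 ± 0.139. Fosb, at 2.23 to 6.49 CPM in CCNE-TA and 4.33 to 5.53 CPM in TA, was the member with a negative log2 fold change, -0.19 ± 0.404. Egr1 and Egr3 were highest in CCNE-TA 1, at 84.9 and 4.57 CPM, and in the other CCNE-TA lungs both lay within the TA range. Without CCNE-TA 1 and TA 3, 0 members passed, and the log2 fold changes of Fos and Egr1 were -0.63 and -0.64.

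Library CCNE-TA 1 stood above the rest in all 3 tissues. It was the highest of the 6 libraries for 6 of 8 tested members in liver, 7 of 9 in kidney and 10 of 10 in lung, where the shares of all genes were 14.5%, 20.7% and 27.9%. It was at least 2-fold above the mean of CCNE-TA 2 and 3 for 4, 7 and 7 members, against 2.71%, 7.16% and 12.5% of all genes. The excess was uneven between tissues. In liver, CCNE-TA 1 was 24.0 times the mean of the other 5 libraries for Egr1, 18.5 times for Fos, 6.23 times for Junb and 3.56 times for Ier2, but 1.01 times for Atf3. In kidney Egr2 led with 7.3 times and Atf3 followed with 3.64 times, while Fos and Egr1, the leaders in liver, were 1.69 to 2.3 times as high, as were the others. In lung the ratios ran from 1.26 for Klf6 to 3.2 for Egr2. The median ratio of the members was 2.82, 2.04 and 2.42 in liver, kidney and lung, against 0.96, 0.982 and 0.988 for all genes.

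**Figure D3:**
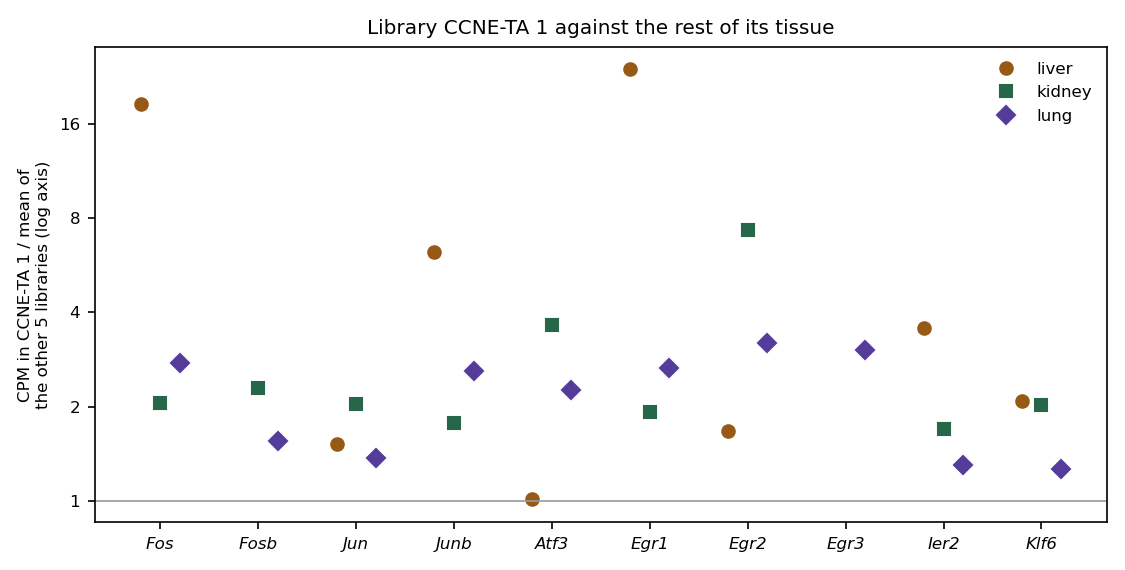
CPM of library CCNE-TA 1 divided by the mean CPM of the other 5 libraries of the same tissue (log axis), for each tested immediate early gene in liver (circles), kidney (squares) and lung (diamonds). Egr1 and Fos in liver, at 24.0 and 18.5, lie far above the other points, and Atf3 in liver lies at 1.01.

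Other transcripts moved with that library. Summed neutrophil markers (5 of 6 listed genes in the table, none at 0 in all libraries of a tissue) were 18.9 CPM in liver CCNE-TA 1 against 0.324 to 13.2 CPM in the other 5 livers. They were 13.5 against 1.21 to 4.9 CPM in kidney and 445 against 14.4 to 72.3 CPM in lung. Lung CCNE-TA 2 and 3, at 72.3 and 49.7 CPM, were also above the TA lungs, at 37.9, 39.8 and 14.4 CPM. All 5 tested markers were higher in every CCNE-TA lung than in every TA lung (3.3% of all genes), with 0 called by edgeR. In liver and kidney the sums of the genotypes overlapped. S100a8 and S100a9, subunits of calprotectin, were the largest terms of the sums in CCNE-TA 1. Summed macrophage markers were 314 against 125 to 139 CPM in lung and 157 against 104 to 149 CPM in kidney, but in liver they were highest in TA 1. Summed T and B cell markers were highest in CCNE-TA 1 in kidney (17.5 against 5.15 to 10.6 CPM), but not in liver or lung. Markers of the lung itself were lowest in lung CCNE-TA 1, at 48800 against 78200 to 126000 CPM. Kidney markers were likewise lowest in kidney CCNE-TA 1 (19700 against 22900 to 74100 CPM), while liver markers were highest in liver CCNE-TA 1 (171000 against 91400 to 147000 CPM). The part of these cells in the members' levels was not tested. Without CCNE-TA 1, the log2 fold change of Fos changed sign in kidney and lung, to -0.56 and -0.38, as did those of Jun and Egr2 in kidney and of Junb, Egr1, Egr3 and Klf6 in lung, with no call before or after.

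Whether the genotype difference itself differed between tissues was tested as an interaction in the fit of all 18 libraries. Klf6 was the 1 member of 10 to pass for liver against lung. Its difference was larger in liver by 1.41 ± 0.354 on the log2 scale (edgeR adjusted p = 0.0215). Of 17155 genes 12.7% passed, and 6.23% passed with a larger value in liver. Egr1 (3.20 ± 1.49) and Fos (2.51 ± 1.36) had larger estimates without passing, and those of Fosb and Egr3 were negative. The call of Klf6 depended on single libraries. Its adjusted p was 0.0549 without liver CCNE-TA 1, 0.0507 without lung TA 1 and 0.0502 without lung TA 2. Between liver and kidney 0 of 10 members passed (background 9.52%), and 2 had an unadjusted p under 0.05 (28.8% of all genes). DESeq2 called 2 members, Klf6 and Egr1, in a comparison where it called 3067 genes and edgeR 1634. Klf6 differed there by 1.11 ± 0.354 (edgeR adjusted p = 0.0574), and the value was 0.0262 with the replicate number as a block and 0.00945 without kidney CCNE-TA 1. Egr1 had the largest estimate, 3.86 ± 1.52 (edgeR adjusted p = 0.114). Between lung and kidney 0 of 10 passed by edgeR or DESeq2, where the edgeR background was 0.00583%, and 0 had an unadjusted p under 0.05 (2.62% of all genes).

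The levels in control mice differed between tissues for most members. In TA lung 8 of the 10 members were higher than in TA kidney, where 57.3% of genes differed and 29.6% were higher in lung. The log2 difference was 4.83 ± 1.10 for Egr3, 4.03 ± 1.07 for Fos, 4.03 ± 0.754 for Fosb, 3.23 ± 0.819 for Egr2 and 3.07 ± 0.367 for Jun. Klf6 (2.27), Atf3 (1.34) and Ier2 (1.27) also passed, and Junb and Egr1 did not. Atf3 had an edgeR adjusted p of 0.0426, which was 0.0626 to 0.148 without kidney TA 2, kidney TA 3 or any 1 of the 3 TA lungs. Against TA liver, 5 members were lower in liver than in lung, Fos by -3.96, Egr2 by -3.54, Klf6 by -3.38, Fosb by -3.28 and Jun by -2.79 on the log2 scale, where 68.5% of genes differed and 35.8% were lower in liver. Egr3 missed the threshold there (-2.02, edgeR adjusted p = 0.0547) and passed with the size factors of DESeq2 (0.0419), upper quartile scaling (0.0241), DESeq2 (0.0199), the 9 TA libraries alone (0.0234), the replicate number as a block (0.0315) and without liver TA 1 (0.0303). For Fos, Fosb, Jun, Egr2, Egr3 and Klf6 every TA lung was above every TA liver and TA kidney. The share of all genes with that order was not counted, so no excess is read from it. In TA liver against TA kidney 3 of 10 differed, where 62.2% of genes did, 28.6% higher and 33.6% lower in liver. Ier2 was higher in liver by 1.48 ± 0.368, Klf6 was lower by -1.11 ± 0.254, and Egr3 was higher by 2.82 ± 1.14 (edgeR adjusted p = 0.0411) on at most 19 counts a library. The adjusted p of Egr3 was 0.0512 to 0.246 without any 1 of the 3 TA kidneys, liver TA 1 or lung TA 2. Scaling across tissues assumes that most genes do not differ, which these backgrounds limit.

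**Figure D4:**
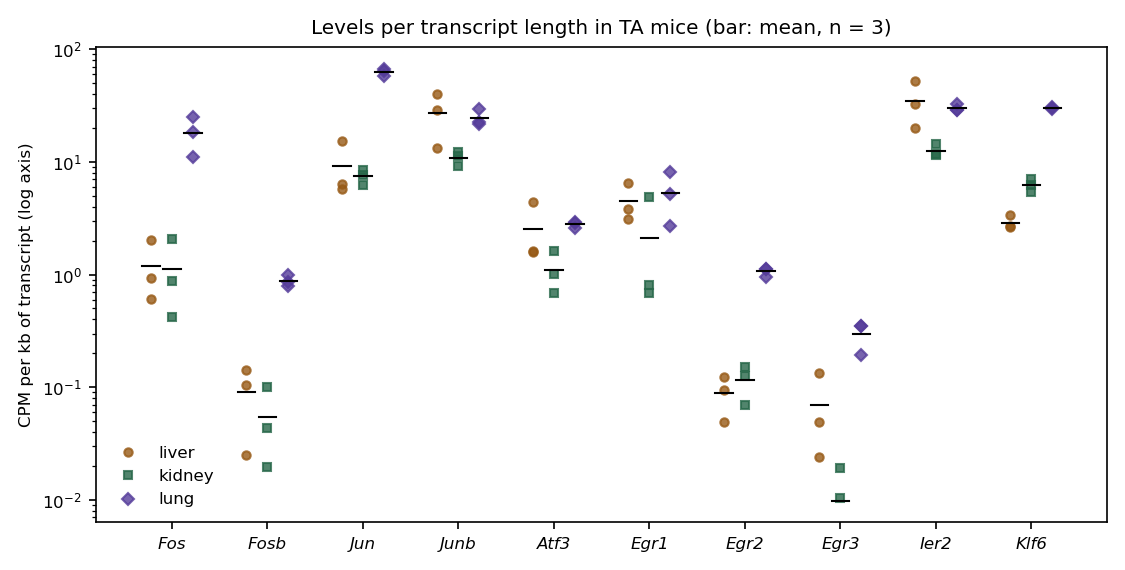
CPM per kilobase of transcript (log axis) of each immediate early gene in the 3 TA libraries of liver, kidney and lung, scaled over all 18 libraries, with the mean as a bar (n = 3). Jun leads in lung at 62.8 and Ier2 leads in liver and kidney at 34.9 and 12.5, and Egr3 is the lowest in each tissue. The 0 of Egr3 in kidney TA 1 cannot be drawn.

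Per kilobase of transcript, the order of the members also differed between control tissues. In TA lung Jun led at 62.8 ± 4.83 CPM per kilobase (SD, n = 3), followed by Ier2 at 30.2 ± 1.85, Klf6 at 30.1 ± 0.386, Junb at 24.4 ± 4.13 and Fos at 18.1 ± 7.07. Egr1 (5.33), Atf3 (2.79), Egr2 (1.07), Fosb (0.881) and Egr3 (0.296) came after. Ier2 and Klf6, Junb and Fos, Egr1 and Atf3, and Egr2 and Fosb were neighbours that differed by less than the sum of their SDs.
In TA liver Ier2 led at 34.9 ± 16.2 CPM per kilobase, before Junb at 27.4 ± 13.4 and Jun at 9.12 ± 5.32. From Ier2 down to Fos at 1.19 ± 0.73, through Egr1 (4.45), Klf6 (2.89) and Atf3 (2.52), no neighbours were further apart than the sum of their SDs. A gap then separated Fosb (0.09), Egr2 (0.0891) and Egr3 (0.0695). In TA kidney Ier2 (12.5 ± 1.53) and Junb (10.9 ± 1.55) led, Jun (7.47 ± 1.13) and Klf6 (6.26 ± 0.855) followed, then Egr1 (2.11 ± 2.36), Fos (1.12) and Atf3 (1.11). Egr2 (0.116), Fosb (0.0542) and Egr3 (0.00983) were again the lowest.

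The spread between libraries of 1 group was itself a feature of these genes in some tissues. The median SD of log2 CPM within TA liver was 0.669 over the 8 tested members and 0.21 over all genes, and 6 of the 8 had an SD above that of the median gene. In TA lung the members' median SD of 0.147 was below the 0.215 of all genes, and in TA kidney 0.249 stood beside 0.259. In the CCNE-TA groups the members' median was 0.666 in liver, 0.69 in kidney and 0.732 in lung, against 0.254 to 0.307 for all genes. Those groups include CCNE-TA 1.

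The members varied together across libraries. With each gene centred within its tissue, the 28 pairs among the 8 members tested in all tissues had a Pearson r of 0.401 to 0.966 over 18 libraries, with a median of 0.611, against a median of -0.00166 for all pairs of genes. Fos and Egr1 were the closest pair (0.966), then Junb and Ier2 (0.886), and Egr2 and Atf3 had 0.802. Jun was closest to Atf3 (0.782) and Klf6 to Jun (0.756). The labels do not say whether libraries of equal number in different tissues came from 1 mouse, so the 18 may not be independent, here and in the fit across tissues. These values describe libraries that share depth and genotype, and they rest in part on CCNE-TA 1: over the other 15 libraries the median r was 0.397, from -0.07 to 0.874. Among the 100 genes most like each member, Fos, Egr1, Junb and Ier2 each had 3 of the 7 other members, Jun and Atf3 had 2, and Egr2 and Klf6 had 0.
The genes whose pattern was most like the mean of the 8 members, among the 13325 tested in all tissues, were Gm13889 (r = 0.922), Tor2a (0.919), Zc3h12d (0.915), Tmem176a (0.907), H2-Eb1 (0.89), H2-Ab1 (0.88), Btg2 (0.877) and H2-Aa (0.875). H2-Eb1, H2-Ab1 and H2-Aa encode MHC class II chains, and Btg2 is an antiproliferative early gene. Over the 15 libraries without CCNE-TA 1, r was 0.831 to 0.893 for the first 4 of these and 0.538 to 0.631 for the MHC genes and Btg2. In kidney CCNE-TA 1, H2-Ab1 stood at 1120 CPM against 113 to 193 CPM in the other 5 kidneys.

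Other genes of the early response were read from the same fits. Of 28 tested further immediate and delayed early genes in liver, 9 rose and 0 fell, with a median log2 fold change of 0.99. Of all liver genes 13.7% rose and 14.8% fell, which is the background of this list and of the lists that follow. Ier5, a relative of Ier2, rose from 5.30 to 16.1 CPM (log2 fold change 1.60, edgeR adjusted p = 0.00349) and Arc, known from synapses, from 0.0878 to 1.42 CPM (3.96, 0.00755). Arc in TA liver was near the limit of counting, as 3 counts there equalled 0.0484 to 0.0778 CPM. Plk2, a polo-like kinase, rose from 7.0 to 22.4 CPM (1.68, 0.00897) and Ier3, a regulator of survival, from 0.818 to 2.79 CPM (1.76, 0.0223). Jund, Nr4a1, Cyr61, Plk3 and Rhob were the other 5. Jund shares 52.6% of its exon bases with Gm11175 on the opposite strand, so its reads cannot be assigned with certainty. In this list 14 of the 28 were highest in CCNE-TA 1, as were 14.5% of all genes. Without liver CCNE-TA 1, 4 of the 28 rose (5.57% of all genes), with the term for TA 2 and TA 3 1 did (0.405%), and with TA 1 as the only control 0 did (0.134%). In kidney 0 of 29 and in lung 0 of 30 passed by edgeR, where 0.0131% and 0.00594% of all genes did. DESeq2 called 0 in both, where it called 0.207% and 1.1% of all genes. At an unadjusted edgeR p under 0.05 there were 4 in kidney and 0 in lung, against 2.13% and 3.65% of all genes. Of the 4, Plk2, Ier5 and Ier5l were higher in CCNE-TA kidney and Sik1 was lower.

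Factors that partner with or regulate the members did not share a direction in liver. Among 12 partners of FOS, JUN and ATF3, Nfe2l2 and Batf3 rose and Atf2 and Atf7 fell, Atf7 from 4.48 to 0.854 CPM (log2 fold change -2.39, edgeR adjusted p = 0.00401). Among 11 tested EGR corepressors and KLF relatives, Nab2, which restrains EGR proteins and is itself an EGR target, rose from 24.3 to 45.1 CPM (0.89, 0.0402), and Nab1, Klf3 and Klf13 fell. Nab2 shares 42.2% of its exon bases with Stat6, Nemp1 and Gm16229 on the opposite strand, and reads there cannot be assigned either. Of 12 SRF and CREB regulators 0 rose and 2 fell, the ternary complex factor Elk4 from 13.2 to 2.47 CPM (-2.42, 0.00204) and the CREB relative Atf1 from 25.2 to 10.9 CPM (-1.21, 0.00684). The stress-activated MAP kinase Mapk14 had a log2 fold change of -1.35 and passed the test. The dual-specificity phosphatases Dusp2 and Dusp8 rose and Dusp16 and the inhibitor Spred2 fell among 14 feedback inhibitors.
In the same fit, Cnot7 rose and Cnot1 and Khsrp fell among 9 decay factors of AU-rich mRNAs, while Zfp36, which binds AUUUA, stood at 144 against 57.2 CPM (log2 fold change 1.33, edgeR adjusted p = 0.1). For the integrated stress response, to which Atf3 belongs, 3 of 12 rose, Trib3 (1.33), Ppp1r15a (0.93) and Ddit3 (0.85). Of 7 heat shock genes, Hspb1 rose and Hsph1 fell. Median log2 fold changes of the 7 regulator lists ran from -0.27 to 0.64, against 0.02 for all genes. Without liver CCNE-TA 1 the counts of raised and lowered genes became 1 and 1 for the partners, 0 and 0 for the corepressors, 0 and 2 for the SRF and CREB regulators, 1 and 0 for the feedback inhibitors, 0 and 1 for the decay factors and 0 and 0 for the stress response, where 5.57% of all genes rose and 5.22% fell. With TA 1 as the only control the TA group held 1 library, so calls in these lists are not counted there. In kidney and lung 0 genes of these lists were called by edgeR (0.0131% and 0.00594% of all genes) or DESeq2 (0.207% and 1.1%). The ones with an unadjusted edgeR p under 0.05 were 2 heat shock genes in lung, where 2.13% of all genes in kidney and 3.65% in lung had such a p. Long transcripts were lower in CCNE-TA liver as a whole, with a median log2 fold change of -0.36 for those over 5000 nt, -0.03 for 2000 to 5000 nt and 0.41 for those under 2000 nt, and the part of length in these lists was not tested.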

How the data were processed

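The authors deposited counts of reads per gene symbol and library, as whole numbers without normalization. Per the submitters' processing notes, TopHat2 2.0.14, Bowtie2 2.2.6 and featureCounts 1.4.6 of Subread were used with the build mm10. The annotation and the strand setting are not given in the sources used here, and the TruSeq kit does not mark the strand. All 18 columns were used.

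Every tissue had a separate fit of its 6 libraries in edgeR 4.0.16 under R 4.3.3 (filterByExpr, TMM, robust quasi-likelihood F test). P-values had a Benjamini-Hochberg adjustment across every gene tested in that fit, and an adjusted p under 0.05 made a call. A positive log2 fold change means a higher level in CCNE-TA. Differences between tissues were contrasts in 1 edgeR fit of all 18 libraries. DESeq2 1.42.0 and limma-voom (limma 3.58.1) were alternatives, with other scalings and filters, a replicate block, a covariate for Xist, offsets for length and GC content, and each library left out in turn. The test was tried on simulated data.

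The members, the gene lists and the treatment of liver TA 2 and TA 3 were chosen with earlier results of these data known. Named were all 10 members, up to 4 genes per list and tissue in order of p, the 8 genes most correlated with the members' mean (log2 of CPM plus 0.5, centred within tissue), and Ccne1. The other 5 early genes raised in liver and the endothelial and calprotectin genes were named after their values had been seen. Transcript lengths, 3′ UTRs and exon overlaps are from GENCODE M21 on mm10, in which 22750 symbols were found, with 912 more through a RefSeq synonym. Promoters are from RefSeq. The counts for the list of MAP kinases in liver are not reported here.

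The replicate numbers of the labels were checked for pairing by the correlation across genes of the deviations of same-numbered CCNE-TA and TA libraries. It was 0.382, 0.574 and 0.395 for the kidney pairs. In kidney, Xist also followed the number in both genotypes, so these values cannot show whether equal numbers are pairs. For liver the correlation was 0.18, -0.00103 and 0.0771, and for lung -0.514, -0.045 and -0.591. No 2 libraries of a group agreed within sampling noise (chi-square per degree of freedom 53.9 to 779).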

Additional observations from a re-analysis of the deposited data

Results flagged for a closer look

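The genotype difference of Klf6 was larger in liver than in lung by 1.41 on the log2 scale (edgeR interaction test, adjusted p = 0.0215), with all 3 CCNE-TA livers above all 3 TA livers and overlapping groups in lung. By edgeR it passed the threshold for a difference between tissues. It was the 1 member to do so in the comparisons of liver with kidney, liver with lung and lung with kidney. For liver against lung 12.7% of 17155 genes passed, and 6.23% passed with a larger value in liver. The edgeR adjusted p was 0.0549 without liver CCNE-TA 1, 0.0507 without lung TA 1 and 0.0502 without lung TA 2. DESeq2 called Klf6 and Egr1 for liver against kidney.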

How the results depend on the processing

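Of 141 values of single members in liver under other settings, 120 kept direction and side of the threshold, 14 lost the call, 7 gained it and 0 changed sign. In kidney and lung 129 of 140 and 159 of 170 kept both, and the other 11 and 11 changed sign with no call. The 2 members raised in liver became 1 with no filter on low counts, 1 with at least 50 counts in 3 libraries, 1 with Xist as a covariate, 5 in the fit of all 18 libraries, 0 with a term for TA 2 and TA 3, 0 with TA 1 as the only control, and 1 to 2 without 1 library. All genes called in liver, 3942, became 259 with the term for TA 2 and TA 3, 91 with TA 1 as the only control and 1521 to 4582 without 1 library. In kidney the 2 called genes became 29 with DESeq2 and 1 to 2 without 1 library. In lung the 1 called gene became 183 with DESeq2, 0 with limma-voom, 94 in the fit of all 18 libraries and 0 to 1 without 1 library. Fewer libraries or another estimate of the spread are part of these settings, and the cause was not tested further.

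For the genotype effect in liver against kidney, 0 members became 1 with the size factors of DESeq2 in edgeR, 1 with upper quartile scaling, 2 with DESeq2 and 0 to 1 without 1 library, and 1634 genes became 3067 with DESeq2 and 396 to 2717 without 1 library. Liver against lung gave 3531 genes with DESeq2 in place of 2184, 693 to 3084 genes and 0 to 1 members without 1 library. Lung against kidney gave 127 genes with DESeq2 in place of 1, and 1 to 2 without 1 library. In TA liver against TA kidney 3 members became 5 in a fit of the 9 TA libraries alone and 2 to 4 without 1 library.

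With the replicate number as a block, the paired fit called 1 member for liver against kidney (Klf6, 1.17, edgeR adjusted p = 0.0262) in place of 0 and 0 genes in lung in place of 1, and it kept the count of 2 in liver, where Jun passed (1.02, adjusted p = 0.0394) and Egr2 did not (1.95, adjusted p = 0.0605). Egr3 and Atf3 between TA tissues also crossed the threshold, Egr3 at an adjusted p of 0.0611 and Atf3 at 0.0368 for liver against kidney, and Egr3 at 0.0315 for liver against lung. The block changed no other member's call. In liver and lung the correlations of same-numbered libraries were lower than in kidney. Xist was nonetheless high or low together in all 3 lung pairs and 2 of the 3 liver pairs. Depth limits Fosb and Egr3 in liver and kidney, with at most 19 counts a library.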
